A study of Homo sapiens with 18 samples.

Results

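The transfer RNAs (tRNAs) that carry the 3 aromatic amino acids, tyrosine (Tyr), phenylalanine (Phe) and tryptophan (Trp), hold 40 rows of the deposited small RNA table. They were chosen by name alone: 16 rows start with tRNA-Tyr-, 16 with tRNA-Phe- and 8 with tRNA-Trp-. They are 40 of the 584 rows whose name starts with tRNA- and of 2462 features in all. A row name gives the isotype, the anticodon, a number for the mature tRNA and a number for the gene copy, so that Phe-GAA-1-1 to Phe-GAA-1-6 are 6 genes for 1 mature tRNA.

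The libraries came from HEK293T, an established line of human embryonic kidney origin, and from the extracellular vesicles (EVs, membrane-bound particles released into the medium) of the same cultures. There were wild type cells (WT), the ATG7-/- clone F2 and the ATG12-/- clone D9, so each knockout is represented by a single clone. All 6 groups, vesicles and cells of each genotype, went through 24 h of serum starvation and hold 3 libraries each, labelled as biological replicates. Whether these were separate cultures is not stated further, so p-values measure the spread between the libraries. ATG7 and ATG12 belong to the machinery that attaches LC3 proteins to membranes, and the series asks how that machinery loads vesicles. Rows for the ATG7 and ATG12 genes were not analysed here, so the knockout labels are not checked by these data.

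A tRNA reads a codon of the messenger RNA through its anticodon and brings the matching amino acid to the ribosome. tRNA genes are transcribed by RNA polymerase III, trimmed at both ends, chemically modified and charged by the synthetase of their amino acid. In humans the genes for tRNA-Tyr hold an intron that the tRNA splicing endonuclease removes, whereas those for tRNA-Phe and tRNA-Trp hold none. Cells also contain tRNA fragments, and reads from a fragment and from the whole tRNA cannot be told apart in this table.

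The sequences below show a Phe and a Trp tRNA side by side and 1 row that bears a Phe name without a Phe-like sequence. They are from RefSeq and GENCODE release 29 on build GRCh38, 5′ to 3′, all on the minus strand, with the anticodon in capitals. Phe-GAA-1-5 lies at chr13:94549650-94549722 and Trp-CCA-1-1 at chr17:8220869-8220940, inside an exon of the long noncoding RNA LINC00324. For Phe-GAA-9-1 the tRNA-like stretch of a RefSeq pseudogene is shown (chr1:143792724-143792795, within LINC02591), followed by Glu-TTC-4-2 (chr1:161422093-161422164), a glutamate tRNA.
Phe-GAA-1-5: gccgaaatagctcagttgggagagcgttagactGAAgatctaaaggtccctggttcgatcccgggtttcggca
Trp-CCA-1-1: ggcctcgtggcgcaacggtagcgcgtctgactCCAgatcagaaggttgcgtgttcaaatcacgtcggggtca
Phe-GAA-9-1: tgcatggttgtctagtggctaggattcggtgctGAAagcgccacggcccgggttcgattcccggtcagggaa
Glu-TTC-4-2: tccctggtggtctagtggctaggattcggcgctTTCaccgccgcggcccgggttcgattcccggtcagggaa
The stretch of Phe-GAA-9-1 was cut out as the part of the 272-base pseudogene that aligned best to Glu-TTC-4-2. It has the Phe anticodon but is identical to Glu-TTC-4-2 at 63 of 72 aligned bases (87.5%). The best alignment of the whole pseudogene to Phe-GAA-1-5 matched 45 of the 73 bases of that gene (61.6%).

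RefSeq (GRCh38.p14) places 36 of the 40 rows, 31 as tRNA genes and 5 as pseudogenes. The genes annotated as tRNA span 89 to 94 bases for Tyr, 73 to 77 for Phe and 72 for Trp. Values are normalised reads, which are recovered reads divided by 1 size factor per library. Cell libraries held 1188388 to 1804089 recovered reads and vesicle libraries 1881080 to 3382605, so their depths do not overlap. Of these reads the 40 rows took 4879 to 9620 in a cell library and 2338 to 7309 in a vesicle library. Testing a row required a value of 10 or more in 3 or more of the libraries in the fit. That left 31 rows in vesicles (12 Tyr, 12 Phe, 7 Trp), 28 in cells (12, 11 and 5) and 32 over all libraries (12, 13 and 7), and 8 rows passed in none. Of 6 listed blood and liver microRNAs, markers of carried-over serum, 5 are in the table. Their summed level was 89.0 to 129 in WT vesicles, 167 to 260 in ATG7-/- vesicles and 243 to 323 in ATG12-/- vesicles, against 1.27 to 11.4 in cells, where miR-142-3p was at 0 in every group. They rise with the genotype in vesicles, and their part in the vesicle results was not tested.

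Summed over all rows, Tyr was the most abundant of the 3 isotypes and Trp the least in every group. In WT cells the Tyr rows summed to 2722, 2910 and 2957 normalised reads (lowest, median and highest library), the Phe rows to 740, 958 and 1007 and the Trp rows to 315, 325 and 335. In WT vesicles the sums were 1786, 2037 and 2839 for Tyr, 1012, 1042 and 1143 for Phe and 584, 596 and 597 for Trp. The Phe sums include the pseudogene rows, Phe-GAA-9-1 and 10-1 among them. The sums are not divided by gene length, and the way a read that fits more than 1 copy was counted is not given in the sources used here. With each mature tRNA counted once, as the mean of its copies, the mean of Trp stood above that of Phe in vesicles. The values were 455 ± 7.85 against 351 ± 24.7 in WT, 928 ± 105 against 589 ± 84.8 in ATG7-/- and 516 ± 86.4 against 401 ± 40.2 in ATG12-/- (SD, n = 3 each). The ATG12-/- ranges overlapped, and in ATG12-/- vesicle library 1 Phe (432) exceeded Trp (420). In cells Phe stayed above Trp on that measure, so the order of Phe and Trp in vesicles depends on how copies are counted.

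The 3 isotypes were a small part of the tRNA reads, 1.70% ± 0.0815 in WT cells and 0.269% ± 0.0486 in WT vesicles (SD, n = 3 each). Those shares do not depend on a library's size factor and do not overlap between cells and vesicles. In the knockouts they were 1.69% ± 0.0168 (ATG7-/-) and 1.68% ± 0.0635 (ATG12-/-) in cells and 0.257% ± 0.0182 and 0.293% ± 0.0204 in vesicles (SD, n = 3 each).

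The balance of the isotypes differed between genotypes. The ratio of Tyr reads to Phe reads within a library was 2.94, 3.04 and 3.68 in the WT cell libraries. Its values were 4.95, 4.97 and 4.98 in ATG7-/- cells and 4.75, 4.94 and 6.83 in ATG12-/- cells, so both knockout groups lay above all WT cell libraries. In vesicles the ratio was 1.71, 1.78 and 2.81 in WT, at most 2.96 with a median of 2.88 in ATG7-/- and 4.38, 4.48 and 4.84 in ATG12-/-. The ATG12-/- vesicles lay above all others, while WT and ATG7-/- vesicles overlapped. The ratio of Tyr to Trp in cells was 8.12 to 9.38 in WT, 11.8 to 13.1 in ATG7-/- and 12.3 to 15.3 in ATG12-/-. These ratios were formed over members chosen with results known, so no test is given for them.

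**Figure D1:**
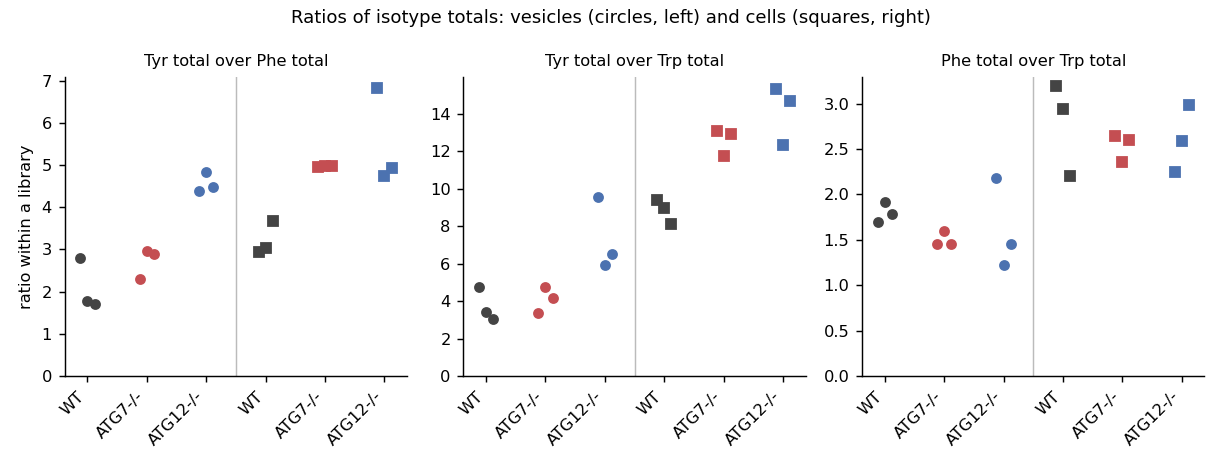
Ratios of the summed reads of 2 isotypes within each library (y axis, no unit) for vesicles (circles) and cells (squares) of each genotype, with 1 point per library. Tyr over Phe reaches 4.38 to 4.84 in ATG12-/- vesicles against 1.71 to 2.81 in WT vesicles.

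ATG7-/- vesicles were compared with WT vesicles first, to see which of these tRNAs change in vesicles when ATG7 is absent. Rows of all 3 isotypes rose: 9 of 12 Tyr rows, 9 of 12 Phe rows and 6 of 7 Trp rows were called higher, 24 of 31 in all, with median log2 fold changes of 1.06, 0.73 and 0.87. Over all 850 features tested 33.5% were called higher and 28.9% lower, with a median of 0.11. The other tested tRNA rows had a median of 0.46, with 217 of 428 called higher. The 2 groups did not overlap for 27 of 31 members and for 68% of all features. No member was called lower by limma, edgeR or DESeq2, and 0 had an unadjusted limma p under 0.05 in that direction. Copies of 1 mature tRNA can share reads, and counted once the calls cover 5 of 8 mature Tyr tRNAs, 4 of 7 Phe and 4 of 5 Trp. The Phe calls include the pseudogenes Phe-GAA-9-1 and 10-1. Shares of all tRNA reads, which do not depend on the size factor, gave another picture. Phe made up 0.0736% ± 0.000736 of tRNA reads in WT and 0.0589% ± 0.00294 in ATG7-/- vesicles (SD, n = 3 each), lower in every ATG7-/- library. The Tyr share (0.155% ± 0.0460 and 0.159% ± 0.0198) and the Trp share (0.0410% ± 0.00247 and 0.0392% ± 0.00210; SD, n = 3 each) overlapped between the groups. As shares of all reads, also free of the size factor, all 3 isotypes were higher in ATG7-/- vesicles, without overlap. The mean shares in ATG7-/- and WT were 0.127% and 0.0757% for Tyr, 0.0471% and 0.0368% for Phe and 0.0314% and 0.0204% for Trp. For Phe the direction thus depends on which reads form the whole. All these values are relative to the other reads of a library. Neither the number of vesicles nor the tRNA per vesicle can be read from them.

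Tyr-GTA-2-1, a chromosome 2 gene (27050782 to 27050870) with the highest level of any member, held 659, 506 and 422 normalised reads in WT vesicles and 1156, 1487 and 1225 in ATG7-/- vesicles. The groups did not overlap, and the log2 fold change was 1.30 (SE 0.16, limma adjusted p = 1.2e-05). Among the Phe genes, Phe-GAA-1-4, a chromosome 12 gene (124927843 to 124927915), held 155, 181 and 169 in WT vesicles and 315, 290 and 256 in ATG7-/- vesicles (log2 fold change 0.76, SE 0.15, limma adjusted p = 0.000483). All 6 copies of Phe-GAA-1 were called, at 0.69 to 0.76. Trp-CCA-2-1, on chromosome 17 (19508181 to 19508252), held 205, 243 and 233 in WT and 579, 541 and 450 in ATG7-/- vesicles, the steepest rise of its isotype (1.19, SE 0.15, limma adjusted p = 1.25e-05). For both genes every ATG7-/- library lay above every WT library.

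The 5 Tyr-GTA-5 copies rose by 1.10 to 1.30, and Phe-GAA-10-1, a RefSeq pseudogene like Phe-GAA-9-1, by 1.08 (SE 0.23, limma adjusted p = 0.00112). Tyr-GTA-4-1 was called at 0.56 (SE 0.19, limma adjusted p = 0.0223), but adjusted p rose to as much as 0.0965 without WT vesicle library 2 or 3 or ATG7-/- vesicle library 1 or 3. That call was also lost under edgeR (adjusted p = 0.137), DESeq2 (0.112), TMM factors (0.0934), no minimum (0.0739) and library totals (0.459). Phe-GAA-3-1, 4-1 and 5-1, Tyr-GTA-6-1 and 7-1 and 2 further rows were not called. Phe-GAA-3-1, which held 40.5, 55.3 and 49.6 in WT vesicles and 88.3, 60.7 and 49.1 in ATG7-/- vesicles, overlapped between the groups (0.41, SE 0.23, limma adjusted p = 0.147). It was called without ATG7-/- vesicle library 3 (limma adjusted p = 0.0489). The size of the rise depends on scaling. With library totals in place of the deposited size factors, the all-feature median shifted by -0.36 and the share of all calls that were higher went from 53.7% to 31.9%. The calls then numbered 8 Tyr, 2 Phe and 4 Trp higher, and 1 Tyr and 1 Phe row were called lower.

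**Figure D2:**
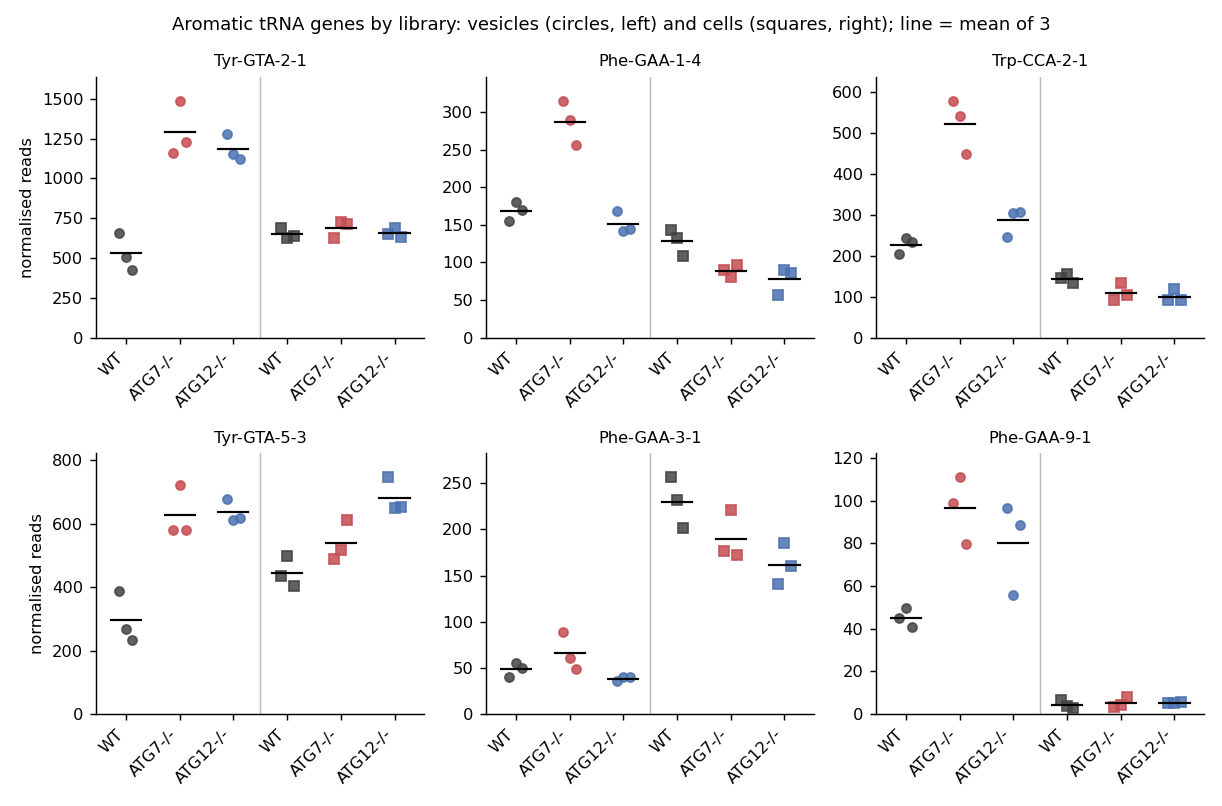
Normalised reads (y axis, from 0) of 6 members in each library, vesicles as circles and cells as squares, with a line at the mean of 3 libraries. Tyr-GTA-2-1 is high in both knockout vesicle groups, Phe-GAA-1-4 and Trp-CCA-2-1 in ATG7-/- vesicles, Phe-GAA-3-1 in cells and Phe-GAA-9-1 in vesicles.

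In ATG12-/- vesicles, set against the same WT libraries, the rows called higher were 9 of 12 Tyr rows and 2 of 12 Phe rows. By mature number the calls cover 5 of 8 Tyr and 2 of 7 Phe, and both of these Phe numbers are RefSeq pseudogenes. The Tyr rows had a median log2 fold change of 1.12, while the medians of Phe and Trp were -0.16 and 0.07. Of all features 22.6% were called higher and 21.1% lower, with a median of 0.05. The groups did not overlap for 14 of 31 members and for 52.7% of all features. Limma, edgeR and DESeq2 called 0 members lower, and 0 had an unadjusted limma p under 0.05 in that direction. Tyr-GTA-2-1 held 1275, 1151 and 1122 normalised reads in ATG12-/- vesicles, all above the WT libraries (1.18, SE 0.16, limma adjusted p = 7.24e-05). Tyr-GTA-4-1, one of a group of Tyr genes on chromosome 14 (20657464 to 20657557), showed the largest rise of the isotype. It went from 54.9, 37.3 and 45.2 in WT to 135, 102 and 104 in ATG12-/- vesicles without overlap (1.30, SE 0.19, limma adjusted p = 0.000163).

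Phe-GAA-1-4, at 168, 142 and 145 in ATG12-/- vesicles, overlapped with WT (-0.15, SE 0.15, limma adjusted p = 0.432), and so did the other 5 Phe-GAA-1 copies. The Phe rows called were Phe-GAA-9-1 and 10-1, whose values were nearly equal, and neither call was made with library totals. In the other direction 1 row was called lower without ATG12-/- vesicle library 3. Phe-GAA-9-1 held 44.8, 49.8 and 40.8 in WT and 96.5, 55.7 and 88.6 in ATG12-/- vesicles (0.78, SE 0.23, limma adjusted p = 0.0129). Its adjusted p reached 0.0563 when ATG12-/- vesicle library 1 or 3 was left out. Of the 7 Trp rows limma, edgeR and DESeq2 called 0, and 1 was higher at an unadjusted limma p under 0.05. That was Trp-CCA-2-1, at 247, 305 and 307 in ATG12-/- vesicles, above but close to the WT range (0.33, SE 0.15, limma adjusted p = 0.0932). Of all tRNA reads in ATG12-/- vesicles Tyr made up 0.216% ± 0.0189, which overlapped with WT, while Phe (0.0474% ± 0.00576) and Trp (0.0303% ± 0.00533; SD, n = 3 each) lay below all WT libraries. Of all reads Tyr made up a mean of 0.127% in ATG12-/- and 0.0757% in WT vesicles, without overlap. Phe (0.0279% and 0.0368%) and Trp (0.0178% and 0.0204%) overlapped with WT on that measure. With library totals, which shifted the all-feature median by -0.35 and moved the share of higher calls from 51.8% to 22.1%, 8 Tyr rows were still called higher and 8 Phe rows were called lower.

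The 2 knockouts were then compared directly, since the comparisons above share their WT libraries and do not test a difference between genotypes. Phe and Trp were lower in ATG12-/- than in ATG7-/- vesicles: 7 of 12 Phe rows and 6 of 7 Trp rows were called lower, against 23.3% of all features, with medians of -0.81 for both isotypes. The 7 Phe rows are the 6 Phe-GAA-1 copies and Phe-GAA-3-1, so per mature tRNA the calls cover 2 of 7 Phe and 4 of 5 Trp, and the Phe share is near that of all features. Tyr had 0 rows called lower by limma, edgeR or DESeq2, or at an unadjusted limma p under 0.05, and a median of -0.04. The median of all features was 0.00 and that of the other tRNA rows -0.26, with 173 of 428 called lower. The groups did not overlap for 15 of 31 members and for 58.7% of all features. Library totals gave 7 Phe and 6 Trp rows lower as well.

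The 6 Phe-GAA-1 copies fell by 0.89 to 0.93 on the log2 scale, and Phe-GAA-1-6 by 0.93 (SE 0.15, limma adjusted p = 0.000319). Its values were 244, 238 and 202 in ATG7-/- and 136, 110 and 111 in ATG12-/- vesicles, with no overlap. Trp-CCA-5-1, on chromosome 7 (99469684 to 99469755), showed the largest difference of the Trp rows, 112, 102 and 94.2 against 40.0, 70.3 and 45.3 (-1.01, SE 0.22, limma adjusted p = 0.00193). Trp-CCA-3-1 lost its call without ATG7-/- vesicle library 1 (limma adjusted p = 0.0529), and Phe-GAA-3-1 lost its own without ATG7-/- or ATG12-/- vesicle library 1 (up to 0.115). Only 2 members were called higher in ATG12-/- vesicles, against 26.6% of all features, and both are Tyr genes of chromosome 14. Tyr-GTA-7-1 held 21.1, 5.84 and 22.5 in ATG7-/- and 48.3, 41.1 and 45.3 in ATG12-/- vesicles (1.58, SE 0.41, limma adjusted p = 0.00634), and Tyr-GTA-4-1 differed by 0.74 (SE 0.19, limma adjusted p = 0.0068). Neither overlapped between the groups.

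**Figure D3:**
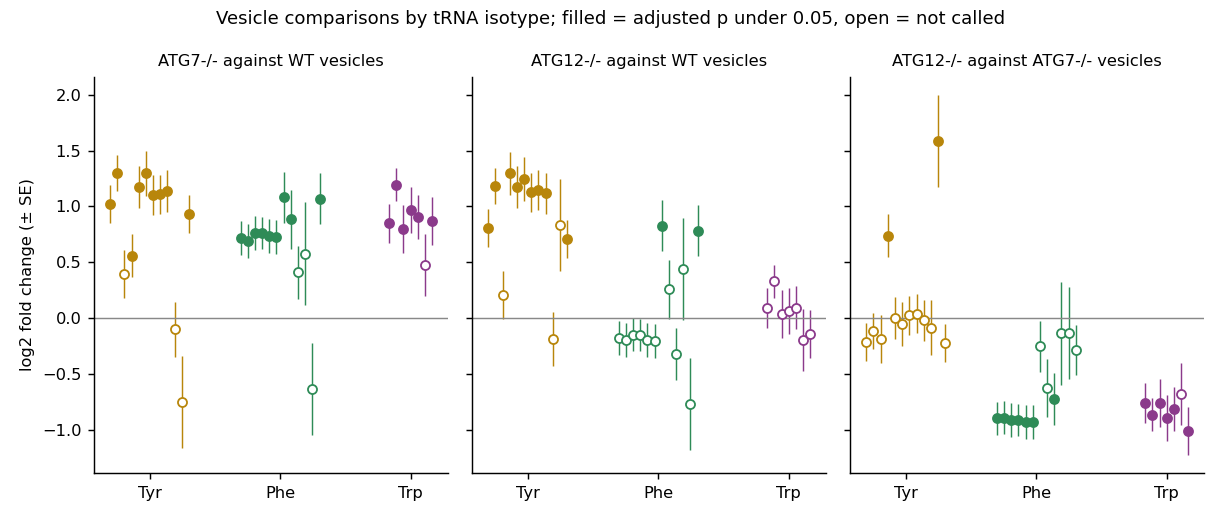
Log2 fold change with its standard error (y axis) of every tested member in the 3 vesicle comparisons, grouped by isotype, filled where the limma adjusted p was under 0.05. Tyr rows are high against WT in both knockouts, and the Phe-GAA-1 copies lie at 0.69 to 0.76 in ATG7-/-, -0.21 to -0.15 in ATG12-/- and -0.93 to -0.89 in the direct comparison.

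In ATG7-/- cells, set against WT cells, few members changed: 1 row was called higher and 2 lower of 28 tested, where 8.44% of all features were called higher and 8.32% lower. The groups did not overlap for 14 of 28 members and for 35.2% of all features. Both rows that fell are Phe genes, Phe-GAA-6-1 and Phe-GAA-4-1, whose starts lie 59.7 kb apart on chromosome 6 (28763597 and 28823316). Phe-GAA-6-1 held 24.8, 23.1 and 18.3 normalised reads in WT cells and 5.77, 5.73 and 9.99 in ATG7-/- cells (-1.53, SE 0.26, limma adjusted p = 0.00205). Phe-GAA-4-1 held 29.3, 27.7 and 19.7 and then 7.41, 8.19 and 9.99 (-1.47, SE 0.25, limma adjusted p = 0.00163). All ATG7-/- values of both genes lay under the minimum of 10, so both entered the fit only through WT and ATG12-/- cell libraries. Their p-values are therefore not independent of that filter. The groups did not overlap for either gene, and both calls held with each library left out, but a minimum of 50 reads removes both genes from the test.

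These 2 rows had nearly equal values in cells, with ratios of 1.00 to 1.43 over the 9 cell libraries. Whether they share reads was not tested. In ATG12-/- cells they stood at 23.8 to 30.8 and 26.4 to 39.2, with no call against WT. The Phe genes between them on the chromosome, Phe-GAA-5-1, 1-1 and 3-1, were not called in ATG7-/- cells (-0.36, -0.41 and -0.28). The single row called higher was Tyr-GTA-5-1, at 271, 270 and 242 in WT and 337, 361 and 404 in ATG7-/- cells (0.49, SE 0.13, limma adjusted p = 0.0216). That call was lost without any 1 of the WT cell libraries or without ATG7-/- cell library 3 (limma adjusted p up to 0.0733), and 2 rows were called higher without ATG7-/- cell library 1. The medians of the tested rows were 0.24 for Tyr, -0.48 for Phe and -0.31 for Trp, against -0.09 for all features. The share of all calls that were higher was 50.3%, and 62.2% with library totals.

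In ATG12-/- cells limma called 6 of 12 Tyr rows higher, 4 on chromosome 14 and 2 on chromosome 8, and 3 Phe rows and 1 Trp row lower, where 7.5% of all features were called higher and 18.2% lower. Per mature tRNA the calls cover 3 of 8 Tyr, 2 of 6 Phe and 1 of 3 Trp. The groups did not overlap for 14 of 28 members and for 48.5% of all features. Tyr-GTA-7-1 held 39.5, 38.3 and 29.9 normalised reads in WT cells and 94.6, 61.5 and 79.0 in ATG12-/- cells (1.09, SE 0.19, limma adjusted p = 0.00161). Tyr-GTA-4-1 held 80.3, 105 and 90.5 and then 196, 153 and 157 (0.87, SE 0.19, limma adjusted p = 0.00534). Tyr-GTA-5-3 held 435, 499 and 404 and then 747, 649 and 652 (0.62, SE 0.14, limma adjusted p = 0.00867). For these 3 genes, which lie beside each other on chromosome 14, the ATG12-/- libraries stood above all WT and ATG7-/- cell libraries, and they were the 3 Tyr calls left whichever of the 6 libraries was left out.

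The next gene on the chromosome, Tyr-GTA-5-4 (0.42, SE 0.13, limma adjusted p = 0.0309), starts 10.1 kb from Tyr-GTA-5-3. Its call and those of Tyr-GTA-5-1 (0.40) and 5-2 (0.45) were lost with any single library left out, at limma adjusted p of up to 0.128. Tyr-GTA-5-5, 30.2 kb from Tyr-GTA-5-3, was not called (0.28). With the replicate number as a block, Tyr-GTA-5-1 and 5-2 also lost their calls (limma adjusted p = 0.0628 and 0.0549). Among the Phe rows Phe-GAA-1-4 fell from 143, 133 and 109 in WT cells to 57.3, 90.2 and 86.0 in ATG12-/- cells, without overlap (-0.73, SE 0.19, limma adjusted p = 0.0137). It lost its call without WT cell library 1 or 2 or ATG12-/- cell library 1 (up to 0.0658) and with library totals. The calls of Phe-GAA-3-1 (-0.50) and Trp-CCA-2-1 (-0.53) were likewise lost without several single libraries and under edgeR and DESeq2, each of which called 1 member lower. Limma called 0 members lower without WT cell library 1 or 2 or ATG12-/- cell library 1, and 2 without ATG12-/- cell library 3. The all-feature median shifted by 0.23 with library totals and 0.14 with TMM factors, and the share of higher calls went from 29.2% to 62.7% and 52.2%. The Tyr rows called higher numbered 4 to 7 over the 8 other settings.

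**Figure D4:**
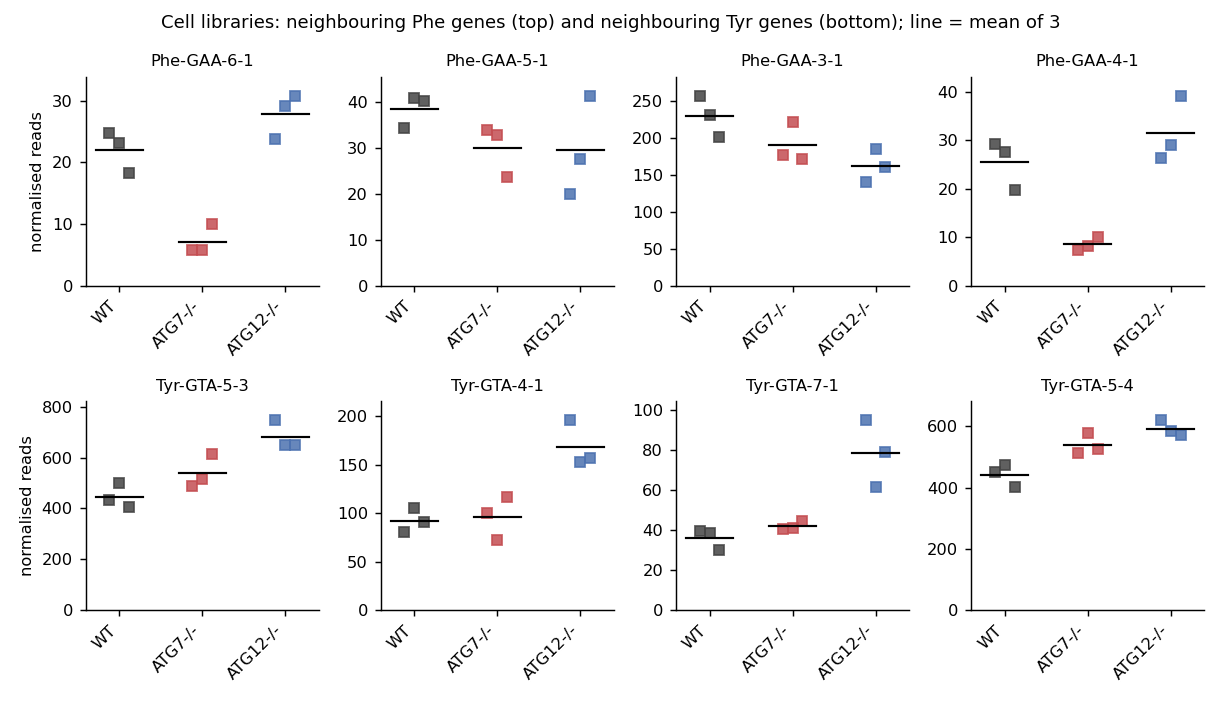
Normalised reads (y axis, from 0) in the 3 cell libraries of each genotype for 4 Phe genes of chromosome 6 (top, in order along the chromosome) and 4 Tyr genes of chromosome 14 (bottom, in order), with a line at the mean. Phe-GAA-6-1 and 4-1 lie at 5.73 to 9.99 in ATG7-/- cells, and Tyr-GTA-4-1 and 7-1 are highest in ATG12-/- cells.

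Vesicles were also set against the cells of the same genotype, to see which of these tRNAs are relatively abundant in vesicles. A row could enter this fit through vesicles alone or cells alone. Phe-GAA-9-1 and 10-1 and Trp-CCA-4-1 and 5-1 did so through vesicles, where they are high, and Phe-GAA-6-1 through cells, so for these 5 rows values are given with no test. Of the 27 rows that reached the minimum in both kinds of library, 12 were called higher and 9 lower in WT, 16 and 5 in ATG7-/- and 15 and 8 in ATG12-/-. All 5 Trp rows among them were called higher in each genotype, while in WT the Tyr rows gave 1 higher and 6 lower and the Phe rows 6 and 3, the 6 being the Phe-GAA-1 copies. Among the 801 features that reached it in both, 38.7% were called higher and 43.3% lower in WT, 40% and 42.8% in ATG7-/- and 39.3% and 41.2% in ATG12-/-. The minimum favours 1 direction for the 5 rows of 1 kind, so counts that include them are given only for comparison with other settings. With them included, in WT 16 of 32 rows were called higher and 10 lower, where 38.9% of all features were called higher and 42.9% lower. In ATG7-/- 20 rows were called higher and 6 lower (all features: 40% and 42.8%), and in ATG12-/- 19 and 9 (39.2% and 41.1%). Other tRNA rows, 448 in this fit, were called higher for 52.9% in WT, 63.6% in ATG7-/- and 55.4% in ATG12-/-. They were called lower for 29.2%, 18.1% and 23.2%. Their median in WT was 0.63, against 0.73 for Trp, 0.40 for Phe and -0.56 for Tyr. Many directions here rest on the scaling: with library totals the all-feature median shifted by -1.45 in WT, -1.91 in ATG7-/- and -2.07 in ATG12-/-. The share of higher calls then fell from 47.6% to 19.4%, from 48.3% to 17.7% and from 48.8% to 14.3%, and 5 of 7 Trp rows were called lower in WT.

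What does not rest on the size factor is the order of members within a library, and there the Phe rows differed most. Phe-GAA-3-1, a chromosome 6 gene (28807833 to 28807905), held 257, 232 and 202 normalised reads in WT cells, more than any other Phe row. In WT vesicles it held 40.5, 55.3 and 49.6, less than each of the 6 Phe-GAA-1 copies, which stood at 124 to 181. Its ratio to the mean of the Phe-GAA-1 copies was 2.53 to 3.76 over the 9 cell libraries and 0.231 to 0.362 over the 9 vesicle libraries. The fitted change in WT was -2.23 (SE 0.20, limma adjusted p = 8.25e-10), against 0.40 to 1.40 for the Phe-GAA-1 copies. Phe-GAA-4-1 was lower in WT vesicles too, at 8.67, 6.91 and 4.38 against 29.3, 27.7 and 19.7 in WT cells (-1.82, limma adjusted p = 9.45e-05). Its WT vesicle values all lay under the minimum of 10, so that p-value is not independent of the filter. Phe-GAA-6-1 was at 18.3 to 24.8 in WT cells and at 2.64 to 7.54 over all vesicle libraries. At the low end, the calls of Phe-GAA-1-1 and 1-4 (0.40 each) were lost without single libraries, WT vesicle libraries 2 and 3 among them, at limma adjusted p of up to 0.285.

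Phe-GAA-9-1 stood at the other end, with 6.37, 3.96 and 2.92 in WT cells and 44.8, 49.8 and 40.8 in WT vesicles. Phe-GAA-10-1 followed it with a ratio of 0.833 to 1.07 over all libraries. Glu-TTC-4-2, which the stretch of Phe-GAA-9-1 resembles, held 100861 to 249595 in the vesicle libraries and 1908 to 6263 in the cell libraries. The ratio of Phe-GAA-9-1 to Glu-TTC-4-2 was 0.000324 to 0.000584 in vesicle libraries and 0.000822 to 0.00215 in cell libraries. The sequence of Phe-GAA-10-1 was not read. Whether reads of glutamate tRNAs were counted on the pseudogenes was not tested. Among the Trp rows, Trp-CCA-5-1 was at 5.10, 6.60 and 11.7 in WT cells and 60.7, 52.5 and 54.0 in WT vesicles. Its ratio to the mean of the 3 Trp-CCA-3 copies was 0.0448 to 0.25 in cells and 0.60 to 0.837 in vesicles, so its place in the order does not depend on the scaling. Tyr-GTA-6-1, at 68.8, 59.4 and 69.4 in WT cells and 27.5, 30.4 and 33.6 in WT vesicles, had the most negative change of the Tyr rows (-1.09, SE 0.21, limma adjusted p = 5.07e-05).

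Copies of the same mature tRNA also behaved differently in the 2 kinds of library. The highest of the 6 Phe-GAA-1 copies exceeded the lowest by 1.22 to 1.33 times in vesicle libraries and by 2.09 to 2.92 times in cell libraries. Among the 5 Tyr-GTA-5 copies the ratio was 1.08 to 1.35 in vesicles and 2.88 to 3.58 in cells. In WT cells Tyr-GTA-5-2 held 164, 139 and 147 while Tyr-GTA-5-5, with the same mature number, held 485, 462 and 432. In WT vesicles the same genes held 327, 212 and 175 and 373, 249 and 216. For the 3 Trp-CCA-3 copies the ratio was 1.02 to 1.21 in vesicles and 1.04 to 1.33 in cells, which overlap. Rows of copies are not independent measurements, so calls per mature tRNA are given beside the counts of rows.

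**Figure D5:**
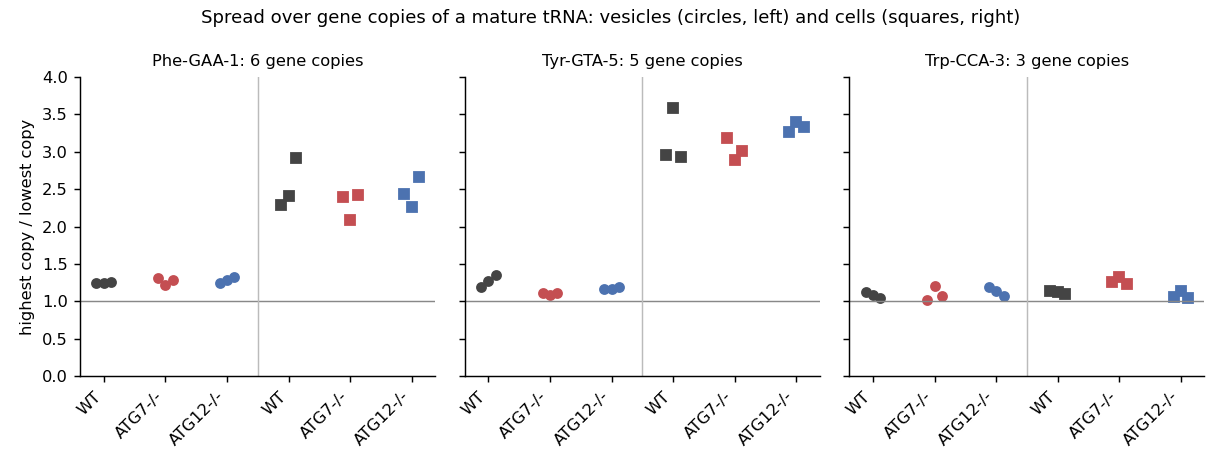
Highest over lowest gene copy of 3 mature tRNAs (y axis, no unit, line at 1) in each vesicle library (circles) and cell library (squares). The ratio stays at or below 1.35 in vesicles and lies above 2 in cells for Phe-GAA-1 and Tyr-GTA-5, but not for Trp-CCA-3.

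The vesicle change was last tested against the cell change of the same knockout, on all 18 libraries. For ATG7-/- the change was more positive in vesicles for 25 of 32 rows (9 Tyr, 10 Phe, 6 Trp; 5 of 8, 5 of 8 and 4 of 5 mature tRNAs), against 26.3% of all features, and limma called 0 rows less positive, against 28.7%. In that direction 0 rows had an unadjusted limma p under 0.05 and DESeq2 called 0, while edgeR called 1, a Tyr row. Limma called 1 without ATG7-/- vesicle library 1 or 3. Over the 27 rows that reached the minimum in both kinds of library, 23 were more positive, against 28.2% of such features. Other tRNA rows leaned the same way. Of 448 tested, 203 were called more positive and 11 less positive for ATG7-/- (median 0.63). For ATG12-/- these numbers were 71 and 22 (median 0.22). For ATG12-/- the change was more positive for 7 rows, against 14.4% of all features. They cover 3 of 8 mature Tyr tRNAs and 1 of 5 Trp, and all 7 reached the minimum in both kinds of library. They were Tyr-GTA-1-1, 2-1, 5-1, 5-2, 5-4 and 5-5 and Trp-CCA-2-1. Tyr-GTA-2-1 gave 1.22 (SE 0.21, limma adjusted p = 6.49e-05) for ATG7-/- and 1.17 (SE 0.21, limma adjusted p = 0.00046) for ATG12-/-, and its cell values of 623 to 728 overlapped between all genotypes. With library totals the all-feature median shifted by -0.43 and -0.56, and 9 and 1 rows were called more positive. The share of all calls that were more positive went from 47.8% to 17.9% for ATG7-/-. For ATG12-/- it went from 54.4% to 6.94%, or to 32.2% with TMM factors. For ATG12-/- limma, edgeR and DESeq2 called 0 rows less positive, with 0 at an unadjusted limma p under 0.05, against 12% of all features. More positive calls for ATG12-/- numbered 1 under edgeR and 4 without WT vesicle library 3, and Tyr-GTA-2-1 was called in every fit.

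Other isotypes with intron-bearing genes (Arg-TCT, Leu-CAA and Ile-TAT, 19 rows) were set beside Tyr. Of 15 tested in vesicles, 4 were called higher and 0 lower in ATG7-/- against WT, with a median of 0.25. In ATG12-/- against WT vesicles 0 were called higher and 1 lower, with a median of -0.02. The Tyr medians in these comparisons were 1.06 and 1.12. Of 9 other RNAs made by polymerase III (Y RNAs, vault RNAs and U6), 8 were tested, with medians of 0.57 in ATG7-/- and 0.40 in ATG12-/- vesicles. No test of a difference between these lists was made.

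The 8 rows below the minimum in every fit were Tyr-GTA-9-1, 10-1 and 11-1, Tyr-ATA-1-1, Phe-GAA-7-1, 8-1 and 11-1 and Trp-CCA-chr7-31. Their recovered reads over all 18 libraries numbered 4 (Tyr-ATA-1-1, which has another anticodon) to 113 (Phe-GAA-11-1, a RefSeq pseudogene). Phe-GAA-11-1 was at 2.92 to 11.5 normalised reads in cell libraries and at 0 to 5.84 in vesicle libraries. Trp-CCA-chr7-31 was at 0 in all 9 vesicle libraries and at up to 2.80 in cells. The reads are too few for a comparison between groups.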

How the data were processed

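Small RNA libraries of HEK293T cells and their vesicles were sequenced, 3 per group in 6 groups. The deposited values are a signal of reads per feature divided by 1 size factor per library. Per the submitters' processing notes, the authors used cutadapt 2.3, Bowtie2 2.3, bedtools and DESeq2 with build GRCh38 (hg38). How reads matching several gene copies were counted is not given in the sources used here. All values (100%) were whole multiples of a library's smallest step within a tolerance of 1e-06, so whole reads were recovered. A read was worth 0.477 to 0.824 normalised reads in cells and 1.17 to 1.89 in vesicles, which limits the precision of low values.

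Features reaching 10 in at least 3 fitted libraries were tested on log2(value + 1) with limma 3.58.1 (R 4.3.3), with an intensity trend and 2-sided Benjamini-Hochberg adjusted p under 0.05 over all features. Fold changes are on that log2(value + 1) scale, which understates changes of low rows. Fits used the 9 vesicle libraries, the 9 cell libraries, or all 18 for vesicles against cells and for differences of changes. On recovered reads, edgeR 4.0.16 (quasi-likelihood) called 250 features higher and 258 lower in ATG7-/- against WT vesicles, and 188 and 187 in ATG12-/- against WT vesicles. DESeq2 1.42.0, other scalings, minima and pseudocounts, single libraries left out and a replicate block were the alternatives. The limma, edgeR and DESeq2 steps were tried on simulated data for ATG7-/- against WT vesicles only, and the outcome is not given here. Replicate pairs differed beyond sampling noise (chi-square per degree of freedom 6.06 to 100.02), so none was counted as 1 library. Sequences were cut with Biopython 1.88 and figures drawn with matplotlib 3.10.9.

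Named rows were, per isotype, the 3 with the highest mean, and per comparison the called row with the largest fold change in each direction whose groups did not overlap. Up to 3 called rows against the majority direction of their isotype were added. Rows printed outside this rule (Phe-GAA-1-5 and Trp-CCA-1-1 for their sequence, Tyr-GTA-1-1 and 5-5 and Trp-CCA-4-1 beside named rows, and the rows below the minimum) were chosen after their values were seen. The members and lists were chosen with earlier results of these data known.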

Additional observations from a re-analysis of the deposited data

Results flagged for a closer look

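A change in vesicles that differed from the change in the cells of the same knockout was found in 20 cases, by limma's test on all 18 libraries. Each case is a named row in 1 knockout, and some rows appear for both knockouts. Each value is the vesicle log2 change minus the cell log2 change. For ATG7-/- the differences among Tyr rows were 1.22 (Tyr-GTA-2-1), 0.68 (Tyr-GTA-5-1), 0.93 (5-2), 0.83 (5-3) and 0.82 (5-4). Among Phe rows they were 1.13 (Phe-GAA-1-1), 1.28 (1-4), 1.22 (1-6), 0.68 (3-1), 2.05 (4-1) and 1.40 (6-1). The difference of Phe-GAA-4-1 joins a fall in ATG7-/- cells to a vesicle value that was not called, and Phe-GAA-6-1 stood below the minimum in vesicles. Phe-GAA-3-1 lost its call under edgeR (adjusted p = 0.182), library totals (0.554), TMM factors (0.134), no minimum (0.108) and the replicate block (0.0584), and in 8 of 12 limma fits without 1 library (up to 0.160). Phe-GAA-6-1 lost its call under edgeR (0.251), DESeq2 (0.189), no minimum (0.0987) and library totals (0.0564), and without WT cell library 1 (0.0505). Among Trp rows the differences were 1.59 (Trp-CCA-2-1), 1.16 (3-1), 0.92 (3-3) and 1.76 (5-1, which stood below the minimum in cells). Trp-CCA-5-1 entered the fit through vesicles alone and Phe-GAA-6-1 through cells alone, so their differences carry no weight as tests. Phe-GAA-4-1 lay under the minimum of 10 in all WT vesicle libraries (4.38 to 8.67) and all ATG7-/- cell libraries (7.41 to 9.99). Its call is therefore not independent of that filter. For ATG12-/- the differences were 1.17 (Tyr-GTA-2-1), 0.77 (Tyr-GTA-5-1), 0.80 (5-2), 0.73 (5-4) and 0.85 (Trp-CCA-2-1). With library totals Phe-GAA-1-1, Trp-CCA-3-1 and 3-3 and Tyr-GTA-5-1 to 5-4 also lost their calls for ATG7-/-, and so did every ATG12-/- value here but that of Tyr-GTA-2-1. Under edgeR Tyr-GTA-5-1 and 5-3 lost their calls for ATG7-/- and the same 4 values lost theirs for ATG12-/-. With TMM factors Tyr-GTA-5-1 lost its call in both knockouts and 5-2 and 5-4 in ATG12-/-. Without single libraries Tyr-GTA-5-1 lost its call for ATG7-/- and Tyr-GTA-5-1, 5-2 and 5-4 lost theirs for ATG12-/-, WT vesicle libraries 2 and 3 among those libraries each time (limma adjusted p up to 0.0901). Groups of 3 libraries were too small for a check of single outlying libraries.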

How the results depend on the processing

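Counts of called rows are given as higher and lower. With library totals they were 4 and 26 for WT vesicles against cells, 5 and 18 for ATG7-/-, 2 and 27 for ATG12-/-, 14 and 2 for ATG7-/- against WT vesicles, 8 lower for ATG12-/- against WT vesicles and 0 lower for ATG12-/- cells. The differences of changes were 9 and 1 (ATG7-/-) and 1 more positive (ATG12-/-) with library totals. With edgeR 1 row was lower in ATG12-/- cells, 1 difference was less positive for ATG7-/- and 1 more positive for ATG12-/-. DESeq2 called 3 rows higher in ATG7-/- cells and 1 lower in ATG12-/- cells. TMM factors gave 1 lower in ATG12-/- cells, 1 less positive difference for ATG7-/- and 3 more positive for ATG12-/-. A minimum of 50 left 1 row higher in ATG12-/- against ATG7-/- vesicles and 0 lower in ATG7-/- cells, since it tests fewer rows, and no minimum gave 2 lower in ATG12-/- cells. A pseudocount of 5 moved no count by over 1.5 times. Apart from the tests on fewer rows or libraries, the cause was not tested.

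With single libraries left out, ATG7-/- cells had 0 to 2 higher and 2 to 3 lower, and ATG12-/- cells 3 higher and 0 to 4 lower. ATG12-/- against WT vesicles had 10 to 11 higher and 0 to 1 lower, and ATG7-/- 22 to 24 higher. ATG12-/- against ATG7-/- vesicles had 11 to 14 lower. Differences numbered 21 to 27 more and 0 to 1 less positive for ATG7-/- and 4 to 8 more positive for ATG12-/-. Vesicles against cells gave 4 to 6 lower for ATG7-/- and 6 to 8 lower for ATG12-/-.

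Reversals came with library totals in vesicles against cells. In WT they were Phe-GAA-1-1 and 1-4 (-1.11 each), 1-6 (-0.52), Trp-CCA-2-1 (-0.86), 3-1 (-0.81), 3-3 (-0.74), Tyr-GTA-5-1 (-1.48) and 5-2 (-0.90). In ATG7-/- they were Phe-GAA-1-1 (-0.44), 1-4 (-0.30), 4-1 (-1.55), Trp-CCA-3-1 (-0.11), 3-3 (-0.29), Tyr-GTA-2-1 (-1.08), 5-1 (-1.26), 5-2 (-0.43), 5-3 (-1.76) and 5-4 (-1.78). In ATG12-/- they were Phe-GAA-1-1 (-1.49), 1-4 (-1.10), 1-6 (-0.95), Trp-CCA-2-1 (-0.58), 3-1 (-1.05), 3-3 (-1.08), Tyr-GTA-2-1 (-1.25), 5-1 (-1.29), 5-2 (-0.69) and 5-4 (-2.00).

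Libraries with the same replicate number did not deviate together (correlations of -0.225 to 0.185), so the numbers were not taken as pairs. A replicate block moved no count by over 1.5 times (ATG12-/- cells had 4 rows higher, against 6). Under it limma lost Tyr-GTA-5-1 (0.40, adjusted p = 0.0628) and 5-2 (0.45, 0.0549) in ATG12-/- cells, the ATG7-/- difference of Phe-GAA-3-1 (0.68, 0.0584), and Phe-GAA-1-1 and 1-4 in WT vesicles against cells. Depth limits the low rows: the 8 untested rows and those near 10 reads rest on few reads.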
